A study of Mus musculus with 103 samples.

Results

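The genes of cholesterol synthesis and of its control by the sterol regulatory element-binding proteins (SREBPs) were followed through mouse embryonic fibroblasts that had lost Smc3, Ctcf, Wapl, or Ctcf and Wapl together. Members were taken by symbol from a list of 29 genes. 28 of them had a row among the 23339 genes of the messenger RNA table, and Hmgcs1 was not analysed here. By step, the 28 members were 1 enzyme of entry into the pathway (Acat2), 6 enzymes of the isoprenoid stretch (Mvk, Pmvk, Mvd, Idi1, Fdps, Ggps1), 3 enzymes that make and close squalene (Fdft1, Sqle, Lss), 9 enzymes that turn lanosterol into cholesterol (Cyp51, Tm7sf2, Lbr, Sc4mol, Nsdhl, Hsd17b7, Ebp, Sc5d, Dhcr7), 5 regulators (Srebf1, Srebf2, Scap, Insig1, Insig2) and 4 genes of sterol transport (Stard4, Npc1, Npc2, Abca1). Across the steps, more members lay higher after deletion of Smc3 and more lay lower after deletion of Ctcf and Wapl, and the difference between the deletions was largest at the squalene enzymes, by the median of each step.

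Cells build cholesterol from acetyl-CoA through mevalonate, farnesyl diphosphate, squalene and lanosterol. When membranes of the endoplasmic reticulum are low in sterol, Scap carries the SREBP precursors to the Golgi, where proteases release transcription factors that activate genes of the pathway. When sterol is plentiful, the Insig proteins hold Scap and the precursors in the endoplasmic reticulum. Smc3 is a core subunit of cohesin, the ring complex that holds DNA in loops and sister chromatids together, Ctcf is the DNA-binding protein at which many loops end, and Wapl releases cohesin from chromatin.

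All cells were quiescent C57BL/6 fibroblasts isolated from E13.5 embryos and rested for 10 days, and each replicate is a clone measured with and without deletion. Of 103 samples in the series, 29 were polyadenylated RNA libraries and 10 were nascent RNA libraries made by global run-on sequencing (GRO-seq). The Smc3 cells carried Rosa26(CreER/+), a tamoxifen-activated Cre recombinase made from the Rosa26 locus, with Smc3(fl/fl) in clone 1 and Smc3(fl/-) in clones 2, 3 and 4, and 4 hydroxytamoxifen-treated libraries were set against 4 untreated ones. The Ctcf(fl/fl) Wapl(fl/fl) cells were deleted by a 4-hour exposure to an adenovirus that carries Cre (Adeno-Cre), and 1 treated library (clone 4) was set against 2 untreated ones (clones 3 and 4). Ctcf(fl/fl) cells given Adeno-Cre, Rosa26(CreER/+) Wapl(fl/-) cells given hydroxytamoxifen for 2 to 3 days, wild-type cells given Adeno-Cre and Rosa26(CreER/+) cells given hydroxytamoxifen each had 2 treated and 2 untreated libraries. Untreated cells keep their floxed alleles, and those of Smc3 clones 2 to 4 and of the Wapl cells therefore had 1 working copy in place of 2.

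The deposited values were reads per kilobase of gene scaled to library size (RPKM), and the 27 libraries of the main table held between 7.7 and 38.6 M reads in genes. Genes were tested with limma on log2(RPKM + 1), a scale that understates changes of low genes, and p-values were Benjamini-Hochberg adjusted over 12604 genes with a threshold of 0.05. 27 members were tested. Idi1, the isopentenyl diphosphate isomerase, lay between 0.0808 and 1.12 RPKM and was not. Ctcf fell by 1.31 on the log2 scale and Wapal, the symbol of Wapl in the files, fell by 0.76 after deletion of both (limma adjusted p = 2.2e-05 and 0.0275). Smc3 RNA was not lower in the libraries labelled as Smc3-deleted, with 10.9 to 13.2 RPKM against 7.62 to 10.5 RPKM in untreated libraries (log2 difference 0.27, limma adjusted p = 0.119, and 0.0421 with clone as a block). A value summed over a gene does not test the loss of an exon, so this label rests on the submitters.

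Marker RNA of other cell types was present in these cultures. The 14 macrophage markers summed to 245, 32.3, 382 and 26.7 RPKM in Smc3-deleted clones 1, 2, 3 and 4, against 2015, 59.4, 1987 and 118 RPKM in the untreated libraries of the same clones. Ptprc and Aif1 were each listed at 0 in at least 1 Smc3-deleted library. None of the 14 passed the test without the clone block, and 11 were lower with it, where 12.6% of all genes were lower. Without the block, 9.37% of all genes tested were higher after deletion of Smc3 and 5.6% lower. Of 8 adipocyte markers, 5 were lower after deletion of Smc3, with sums of 47.3 to 159 RPKM against 119 to 221 RPKM in untreated cells, and of 4 muscle markers tested 2 were higher, with sums of 42.5 to 119 RPKM against 20.5 to 72.5 RPKM. Of 10 fibroblast markers 2 were lower after deletion of Smc3, Col1a1 and Postn, with sums of 9151 to 12751 RPKM against 11559.5 to 16268 RPKM in untreated cells. Of 5 endothelial markers tested 2 were lower, Flt1 and Egfl7, with sums of 1.41 to 10.9 RPKM against 12.3 to 21.9 RPKM, and of 5 cycling markers tested 1 was lower, Mcm2. In the Ctcf- and Wapl-deleted library, fibroblast markers summed to 6691 RPKM, against 12718 and 7665 RPKM in the untreated libraries. Macrophage markers summed to 680 RPKM against 121 and 885 RPKM, and muscle markers to 445 RPKM against 120 and 173 RPKM. Of the muscle markers tested in that library, Acta1 lay higher (log2 difference 4.07) and Tnnt2, Des and Myh8 lower (−1.77, −0.72 and −0.10). Of the endothelial markers, Egfl7 and Cdh5 lay higher (0.92 and 0.03) and Flt1, Tek and Kdr lower (−1.92, −0.95 and −0.24). Adipocyte markers ranged from −1.44 for Lpl to 1.32 for Dgat2. The part of these shifts in the results below was not tested. In bulk RNA fewer cells of a type and less RNA per cell cannot be told apart.

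Untreated clones differed widely before any deletion. Among the 14 untreated libraries, Fdps, the farnesyl diphosphate synthase, spanned 2.59 to 43.3 RPKM, a 16.7-fold range. Sc4mol spanned 11.8-fold, Hsd17b7 11.4-fold and Fdft1 11.1-fold, whereas Npc2 spanned 1.65-fold, Ebp 1.74-fold and Srebf2 2.08-fold. The mean of log2(RPKM + 1) over the 18 tested enzymes put the libraries in an order that followed clone as well as treatment. It was 4.61, 3.48, 3.88 and 4.08 in Smc3-deleted clones 1 to 4, against 3.16, 2.80, 4.11 and 3.53 in the same clones untreated. It was 3.30 in the Ctcf- and Wapl-deleted library, against 4.50 and 4.23 in its untreated libraries. The Smc3-deleted library of clone 1 was the highest of all 27, and the untreated libraries of the Ctcf and Wapl cells were among the 4 highest. The deleted library of those cells lay above untreated Smc3 clones 1 and 2 and above both untreated Wapl libraries, at 2.84 and 3.16.

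**Figure D1:**
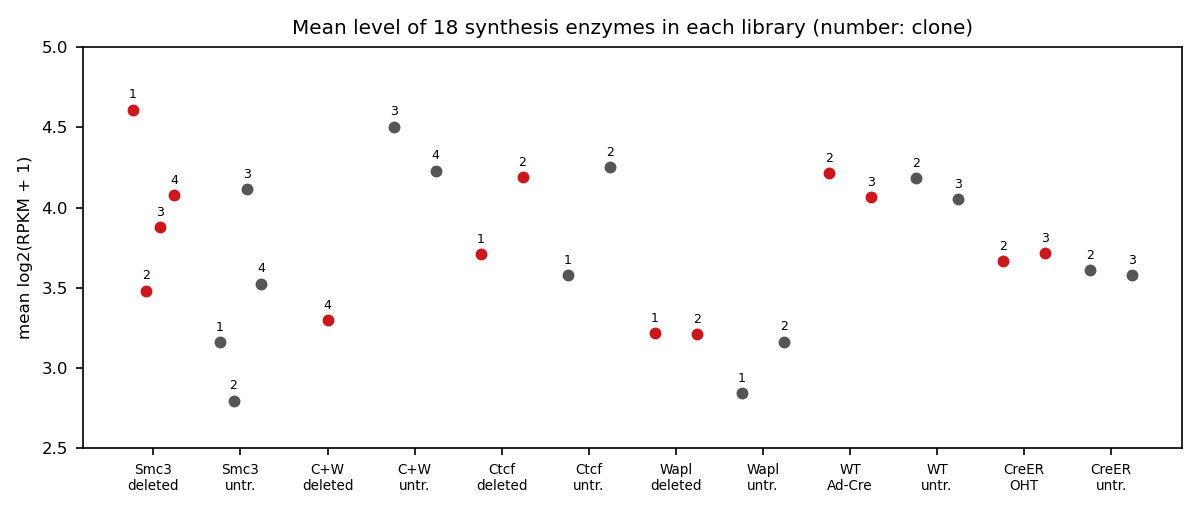
Mean of log2(RPKM + 1) over the 18 tested synthesis enzymes in each of the 27 libraries, 1 point per library with its clone number, deleted or treated groups in red left of their untreated groups (untr.) in grey; C+W is Ctcf and Wapl, Ad-Cre Adeno-Cre and OHT hydroxytamoxifen. Smc3-deleted libraries lie between 3.48 and 4.61, the deleted Ctcf and Wapl library at 3.30 and its untreated libraries at 4.50 and 4.23.

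After deletion of Smc3, 5 of the 27 tested members rose and none fell, where 9.37% of all genes tested rose and 5.6% fell. The 5 were Tm7sf2, Hsd17b7, Pmvk, Srebf2 and Sc5d. The median log2 difference was 0.53 over the members and 0.07 over all genes, and 23 of 27 members lay above 0. At an unadjusted p under 0.05 the members counted 11 higher and 1 lower. The share of all genes at an unadjusted p is not given here. Such counts, here and below, therefore cannot be set against that share. With clone as a block, which compares each deleted library with its own untreated library, 12 members were higher and 1, Abca1, was lower, where 24% of all genes were higher and 12.6% lower. The count depended on single libraries: it was 1 without untreated clone 1, without untreated clone 2 or without deleted clone 4, it was 8 without deleted clone 2, and it was 13 without untreated clone 3. Untreated Smc3 clone 1 was the shallowest library of the main table, with 7.7 M reads in genes against 24.6 M in deleted clone 1. Any part of depth in these counts was not tested. The spread of Smc3 clone 3 is visible pair by pair. Of the 19 synthesis enzymes, 18 were higher in the deleted library of clone 1 (median log2 difference 1.55), 18 in clone 2 (0.57) and 18 in clone 4 (0.40), but 3 in clone 3, where 16 were lower (median −0.22).

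**Figure D2:**
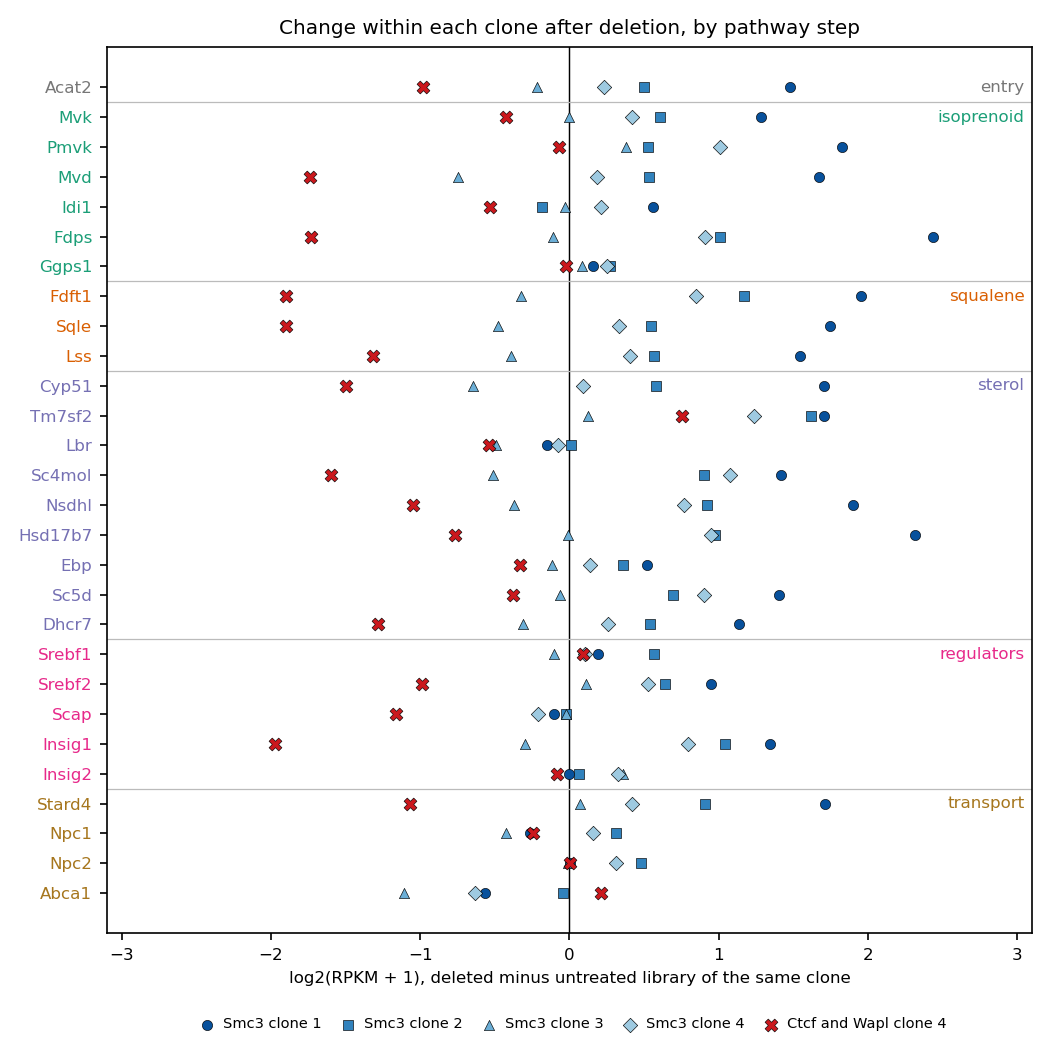
Log2(RPKM + 1) of the deleted minus the untreated library of the same clone for each of the 28 members, ordered by step, with 1 symbol per clone. Triangles of Smc3 clone 3 lie below 0 for 16 of 19 enzymes and the other Smc3 clones above 0 for 18 of 19, and crosses of Ctcf and Wapl clone 4 lie below 0 for 18 of 19.

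Among the isoprenoid enzymes, which lead from mevalonate to the building blocks of sterols, 1 of 5 tested rose after deletion of Smc3 and the median log2 difference was 0.58. Pmvk, phosphomevalonate kinase, had 17.6, 9.23, 12.9 and 20.4 RPKM in Smc3-deleted clones 1 to 4, against 4.25, 6.09, 9.69 and 9.61 RPKM in untreated clones 1 to 4. The groups overlapped by the deleted library of clone 2, and the log2 difference was 0.93 ± 0.26 (SE, n = 4 each, limma adjusted p = 0.0179). Mvk, mevalonate kinase, had 57.0, 34.1, 36.2 and 41.3 RPKM in deleted cells, against 22.9, 22.1, 36.3 and 30.7 RPKM in untreated cells. Fdps had 21.6, 6.24, 11.2 and 15.7 RPKM in deleted cells, against 3.18, 2.59, 12.1 and 7.86 RPKM in untreated cells. For both genes untreated clone 3 lay above deleted clones 2 and 3, and neither passed the test (log2 difference 0.58, limma adjusted p = 0.0524 for Mvk, and 1.06, limma adjusted p = 0.0628 for Fdps). Both passed with the clone block (limma adjusted p = 0.0260 and 0.0262). Mvd, mevalonate diphosphate decarboxylase, had 48.0, 19.4, 20.7 and 29.03 RPKM in deleted cells, against 14.4, 13.1, 35.4 and 25.4 RPKM in untreated cells, and did not pass (log2 difference 0.41, limma adjusted p = 0.449). Ggps1, which makes geranylgeranyl diphosphate for protein prenylation, differed by 0.19. Acat2, the acetoacetyl-CoA thiolase of the entry step, differed by 0.50 (limma adjusted p = 0.162).

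None of the 3 squalene enzymes passed the test after deletion of Smc3, with a median log2 difference of 0.54. Fdft1, squalene synthase, had 34.9, 10.8, 23.3 and 22.1 RPKM in deleted cells, against 8.28, 4.24, 29.4 and 11.9 RPKM in untreated cells. Sqle, squalene epoxidase, had 41.9, 21.2, 28.4 and 32.0 RPKM in deleted cells, against 11.8, 14.1, 40.0 and 25.2 RPKM in untreated cells. Lss, lanosterol synthase, had 24.3, 9.38, 13.3 and 15.7 RPKM in deleted cells, against 7.67, 6.01, 17.8 and 11.6 RPKM in untreated cells. In all 3 genes untreated clone 3 lay above at least 2 deleted libraries, while clones 1, 2 and 4 were each higher when deleted. The log2 differences were 0.91 for Fdft1 (limma adjusted p = 0.137, and 0.0300 with the block), 0.54 for Sqle (0.239) and 0.53 for Lss (0.223). In the RefSeq annotation Fdft1 shares 774 bases with the neighbouring gene Ctsb, Lss 11269 with the long noncoding RNA 4930483K19Rik, Insig1 7251 with Gm35223, Mvd 3213 with Gm51557 and Npc1 8982 with Rmc1. Values of these 5 members are uncertain to that extent, since whether reads were counted by strand is not given in the sources used here.

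The sterol stretch, from lanosterol to cholesterol, held 3 of the 5 members that rose, with a median log2 difference of 0.72 over 9 enzymes. Tm7sf2, a sterol reductase that acts after Cyp51, had 29.3, 18.3, 12.7 and 23.1 RPKM in Smc3-deleted cells, against 8.28, 5.29, 11.5 and 9.25 RPKM in untreated cells. All deleted libraries lay above all untreated ones, and the log2 difference was 1.17 ± 0.28 (SE, n = 4 each, limma adjusted p = 0.00745). Hsd17b7, the ketoreductase of sterol demethylation, had 18.9, 9.01, 10.94 and 15.99 RPKM in deleted cells, against 3.00, 4.09, 10.998 and 7.79 RPKM in untreated cells. It rose by 1.06 ± 0.28 (SE, limma adjusted p = 0.0145), with untreated clone 3 above deleted clones 2 and 3. Sc5d, a sterol desaturase, had 27.7, 13.8, 21.3 and 23.4 RPKM in deleted cells, against 9.85, 8.11, 22.3 and 12.05 RPKM in untreated cells, and rose by 0.74 ± 0.24 with the same overlap at clone 3 (limma adjusted p = 0.0482). Dhcr7, the reductase that makes cholesterol from dehydrocholesterol, had 44.8, 20.3, 22.2 and 25.6 RPKM in deleted cells, against 19.8, 13.6, 27.8 and 21.2 RPKM in untreated cells, and its groups overlapped (log2 difference 0.41, limma adjusted p = 0.281). The other differences lay between −0.18 for Lbr, the other sterol reductase of that step and an anchor of chromatin at the nuclear envelope, and 0.80 for Nsdhl, the sterol dehydrogenase (limma adjusted p = 0.221, and 0.0400 with the block). Sc4mol, the methylsterol oxidase, also passed with the block alone (log2 difference 0.72, limma adjusted p = 0.356 without and 0.0472 with it).

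Of the 5 regulators, Srebf2, the SREBP that mainly drives cholesterol synthesis, rose after deletion of Smc3. It had 115, 126, 110.2 and 149.5 RPKM in deleted cells, against 59.4, 80.3, 102 and 103 RPKM in untreated cells. The groups did not overlap, and the log2 difference was 0.56 ± 0.17 (SE, n = 4 each, limma adjusted p = 0.0363). It was 0.0937 with median-of-ratios scaling, so this call depended on the scaling. Insig1, which retains Scap and is itself an SREBP target, had 43.0, 29.7, 36.1 and 39.5 RPKM in deleted cells, against 16.3, 13.9, 44.6 and 22.3 RPKM in untreated cells. Only untreated clone 3 lay inside or above the range of the deleted libraries, and Insig1 did not pass without the clone block (log2 difference 0.72, limma adjusted p = 0.0824, and 0.0230 with it). Scap, the escort, had 51.4, 69.0, 66.2 and 64.0 RPKM in deleted cells, against 55.3, 70.1, 67.4 and 74.1 RPKM in untreated cells, and the groups overlapped (log2 difference −0.09, limma adjusted p = 0.654). Srebf1, the SREBP best known for fatty acid genes, and Insig2 each differed by 0.19.

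No transport gene passed the test after deletion of Smc3, and the median log2 difference of the 4 was 0.07. Stard4, a soluble carrier of sterol, had 7.59, 3.48, 6.59 and 4.72 RPKM in deleted cells, against 1.63, 1.39, 6.24 and 3.28 RPKM in untreated cells. It was higher in the deleted library of every clone, with a log2 difference of 0.78 (limma adjusted p = 0.0562, and 0.0221 with the block). Abca1, the exporter that loads cholesterol onto lipoproteins, had 11.2, 10.0, 10.5 and 7.83 RPKM in deleted cells, against 17.0, 10.4, 23.9 and 12.7 RPKM in untreated cells. It was lower in the deleted library of every clone (log2 difference −0.59, limma adjusted p = 0.0816, and 0.00774 with the block), and its highest untreated values stood in the clones with the highest macrophage marker sums. Npc1 and Npc2, which pass cholesterol out of lysosomes, differed by −0.06 and 0.20.

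**Figure D3:**
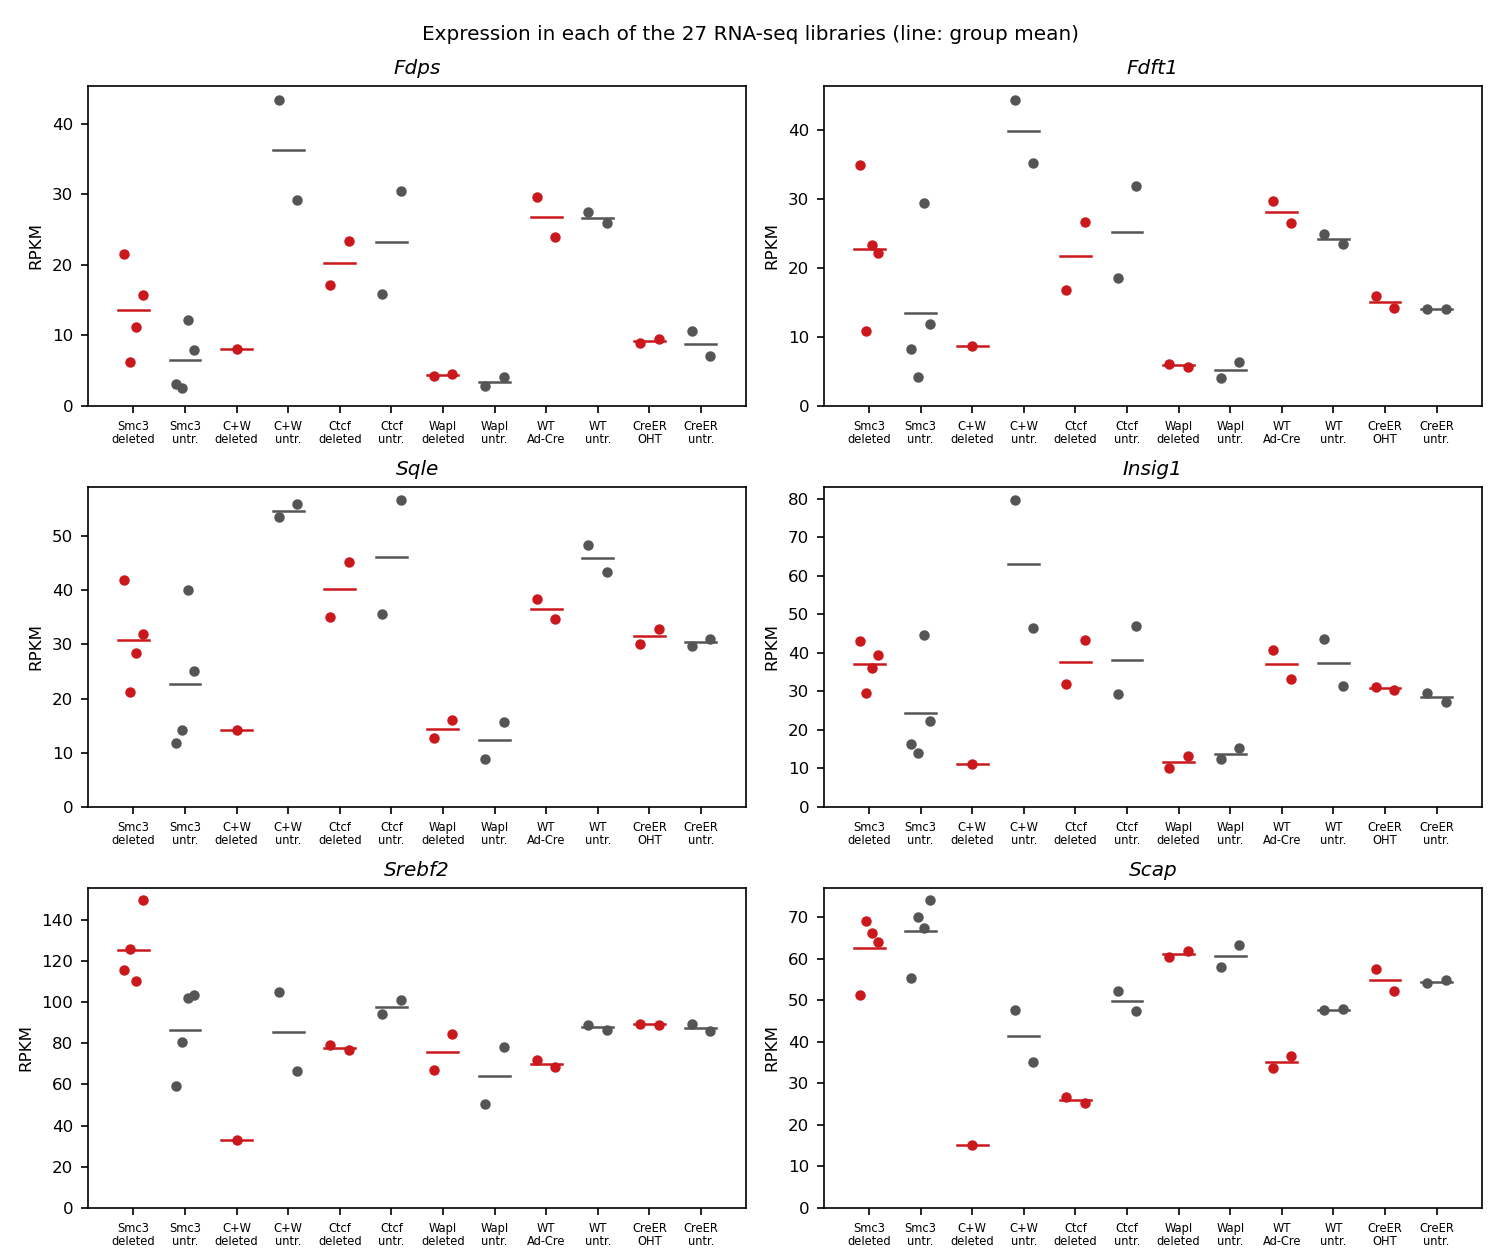
RPKM of 3 enzymes and 3 regulators in each of the 27 libraries (points, with lines at group means), deleted or treated groups in red left of their untreated groups (untr.) in grey; C+W is Ctcf and Wapl, Ad-Cre Adeno-Cre and OHT hydroxytamoxifen. The single deleted Ctcf and Wapl library lies below both of its untreated libraries in every panel, for example at 11.1 against 79.6 and 46.3 RPKM for Insig1.

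After deletion of Ctcf and Wapl, 8 of the 27 tested members fell and none rose, where 5.34% of all genes tested fell and 10.5% rose. The 8 were the regulators Scap, Insig1 and Srebf2, the isoprenoid enzymes Mvd and Fdps, the squalene enzymes Sqle and Fdft1, and Dhcr7. The median log2 difference was −0.99 over the members and 0.17 over all genes, and 21 of 27 members lay below 0. At an unadjusted p under 0.05 the members counted 14 lower and 0 higher. In the pair of clone 4, 18 of the 19 enzymes were lower in the deleted library. With median-of-ratios scaling the median of all genes was −0.00, the share of higher genes among all calls was 42.5%, against 66.3% without it, and 11 members were lower. The deleted group is 1 library, assumed by the test to vary like the other groups, and the count was 2 (Scap and Insig1) without the untreated library of clone 3. With only the 3 libraries compared in the fit, it was 0.

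Of the 5 regulators 3 fell after deletion of Ctcf and Wapl, and Insig1 had the largest change of all members tested. Insig1 had 11.1 RPKM in the deleted library, against 79.6 and 46.3 RPKM in the untreated libraries of clones 3 and 4, and fell by 2.35 ± 0.47 on the log2 scale (SE, n = 1 and 2, limma adjusted p = 0.00211). Scap had 15.1 RPKM in the deleted library, against 47.7 and 35.1 RPKM in the untreated ones, and fell by 1.38 ± 0.19 (limma adjusted p = 6.79e-05). Srebf2 had 33.1 RPKM in the deleted library, against 105 and 66.5 RPKM, and fell by 1.31 ± 0.30 (limma adjusted p = 0.00586). For Scap and Srebf2 the deleted library was the lowest of all 27, and for Insig1 a hydroxytamoxifen-treated Wapl library lay lower, at 10.1 RPKM. Srebf1 and Insig2 differed by −0.05 and 0.22 and did not pass.

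Of the isoprenoid enzymes, 2 of 5 tested fell after deletion of Ctcf and Wapl, with a median log2 difference of −0.80. Mvd had 6.77 RPKM in the deleted library, against 45.6 and 24.9 RPKM in the untreated ones, and fell by 2.16 ± 0.56 (limma adjusted p = 0.0131, and 0.0724 with the clone block). Fdps had 8.07 RPKM in the deleted library, against 43.3 and 29.2 RPKM, and fell by 2.01 ± 0.64 (limma adjusted p = 0.0414, and 0.0778 with the block). Mvk had 17.7 RPKM in the deleted library, against 41.2 and 24.1 RPKM, and did not pass (log2 difference −0.80, limma adjusted p = 0.118). All 3 deleted values lay below both untreated ones, whereas Pmvk and Ggps1 differed by 0.04 and 0.22. Acat2 differed by −0.95 (limma adjusted p = 0.118).

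The squalene step had the lowest median of any step with more than 1 gene, −1.87, and 2 of its 3 enzymes fell. Fdft1 had 8.69 RPKM in the deleted library, against 44.3 and 35.2 RPKM in the untreated ones (log2 difference −2.06 ± 0.68, limma adjusted p = 0.0488). That call was lost with a pseudocount of 0.1 (limma adjusted p = 0.0576). Sqle had 14.2 RPKM in the deleted library, against 53.4 and 55.9 RPKM (log2 difference −1.87 ± 0.50, limma adjusted p = 0.0156). Lss had 7.73 RPKM, against 22.5 and 20.8 RPKM, and did not pass (log2 difference −1.37, limma adjusted p = 0.0589). For each of the 3 the deleted library lay below both untreated ones.

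Among the 9 sterol enzymes 1 fell, Dhcr7, which had 6.14 RPKM in the deleted library against 28.4 and 16.4 RPKM in the untreated ones (log2 difference −1.66 ± 0.41, limma adjusted p = 0.00937). Hsd17b7 had 9.34 RPKM in the deleted library, against 22.9 and 16.6 RPKM, and did not pass (log2 difference −0.99, limma adjusted p = 0.186). The others ranged between −1.67 for Sc4mol (limma adjusted p = 0.192, and 0.0459 with the block) and 0.35 for Tm7sf2, and the median of the 9 was −0.99. No transport gene passed. Stard4 had 3.20 RPKM in the deleted library, against 8.36 and 7.80 RPKM (log2 difference −1.11, limma adjusted p = 0.112), and Npc1, Npc2 and Abca1 differed by 0.02, 0.17 and −0.07.

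The change in Smc3 cells was then set against the change in Ctcf and Wapl cells by testing the difference between them, Smc3 deletion minus Ctcf and Wapl deletion. The 12 members past the threshold all lay above 0: Scap, Insig1, Srebf2, Dhcr7, Sqle, Fdps, Mvd, Fdft1, Hsd17b7, Stard4, Mvk and Lss. Of all genes tested, 3.78% were higher and 5.09% lower in this difference, with a median of −0.11, against a median of 1.44 over the members. These contrasts share no libraries, but they differ in Cre delivery and in clones, and those factors and the genotype cannot be told apart. The count was 4 (Sqle, Srebf2, Scap and Insig1) without the untreated Ctcf and Wapl library of clone 3.

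By step, the difference passed for all 3 squalene enzymes (median log2 difference 2.41), for 3 of 5 regulators (1.29), for 3 of 5 isoprenoid enzymes (1.38), for 2 of 9 sterol enzymes (2.01), for 1 of 4 transport genes (−0.03) and not for Acat2 (1.44, limma adjusted p = 0.0570). The largest differences were 3.08 ± 0.54 for Insig1 (limma adjusted p = 0.00118), 3.07 ± 0.74 for Fdps (0.0140) and 2.97 ± 0.79 for Fdft1 (0.0241). Scap, with the lowest p, differed by 1.29 ± 0.22 (limma adjusted p = 0.000845), with −0.09 in Smc3 cells and −1.38 in Ctcf and Wapl cells. Srebf2 (1.87 ± 0.35), Dhcr7 (2.07 ± 0.47), Sqle (2.41 ± 0.57) and Mvd (2.57 ± 0.64) followed by p. Hsd17b7 (2.05 ± 0.56), Stard4 (1.89 ± 0.53), Mvk (1.38 ± 0.39) and Lss (1.90 ± 0.55) had limma adjusted p between 0.0272 and 0.0367. With the clone block 10 members were higher, where 8.25% of all genes were higher. Mvd (limma adjusted p = 0.0607), Hsd17b7 (0.0974) and Mvk (0.104) no longer passed, and Sc4mol (0.0199) did. Tm7sf2 and Pmvk, which rose with Smc3 deletion, differed by 0.82 and 0.89 and did not pass (limma adjusted p = 0.419 and 0.326). Srebf1, Insig2, Ggps1, Npc1 and Npc2 differed by 0.24, −0.04, −0.03, −0.08 and 0.02.

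**Figure D4:**
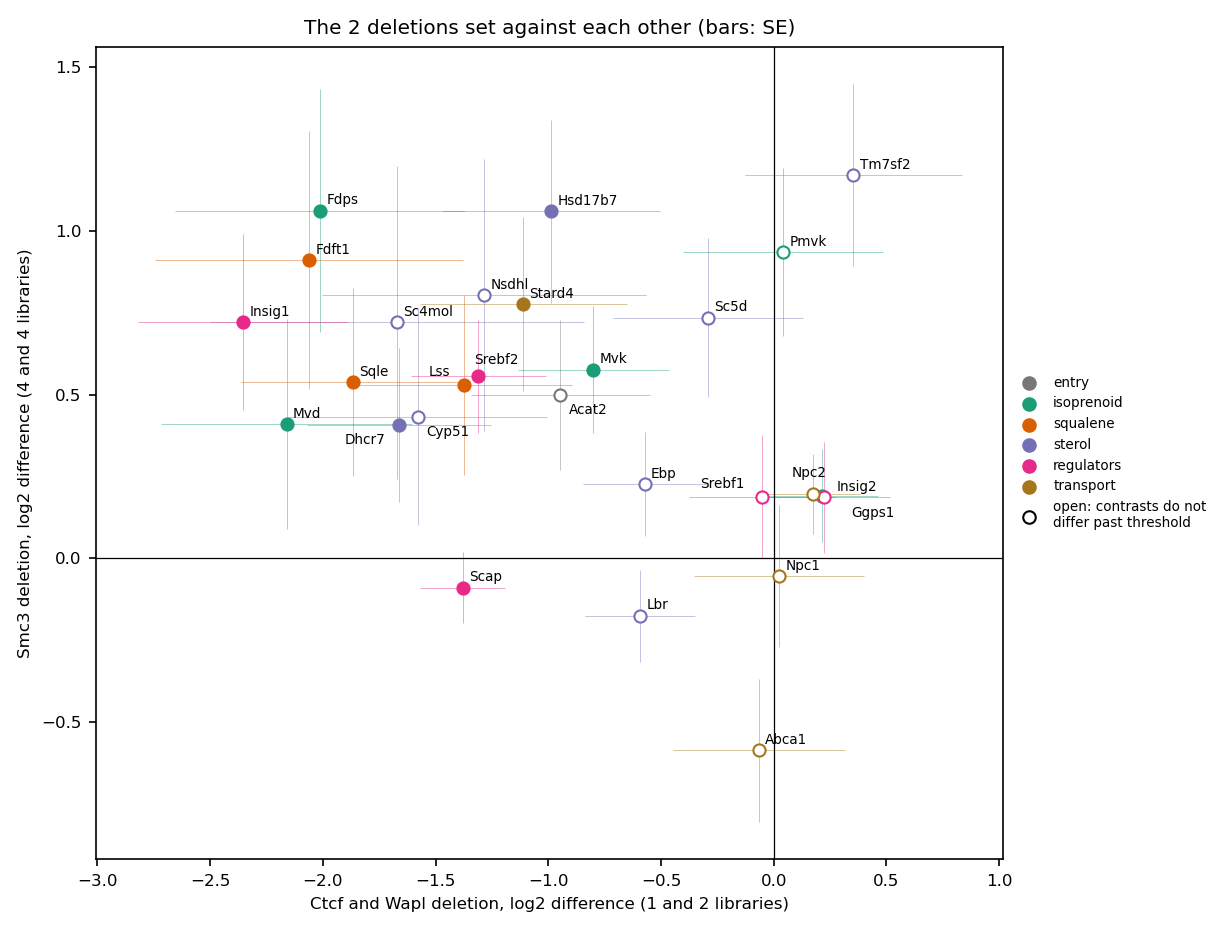
Log2 difference of each of the 27 tested members after deletion of Smc3 (vertical, 4 and 4 libraries) and after deletion of Ctcf and Wapl (horizontal, 1 and 2 libraries), with standard errors. Colours give the step, and filled points are the 12 members whose contrasts differ at adjusted p under 0.05, which lie left of −0.79 on the horizontal axis.

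Deletion of Ctcf or Wapl alone, and the treatments without a floxed gene, moved few members. Ctcf RNA differed by −1.38 after deletion of Ctcf alone (limma adjusted p = 1.69e-06). Wapal RNA differed by −0.51 after deletion of Wapl alone and did not pass (limma adjusted p = 0.167, and 0.0233 with the clone block). After deletion of Ctcf alone, 1 member fell, where 2.63% of all genes fell, and none rose, where 5.04% rose, with 2 members higher at an unadjusted p under 0.05. It was Scap, which had 26.7 and 25.3 RPKM in deleted cells, against 52.3 and 47.5 RPKM in untreated cells (log2 difference −0.91 ± 0.15, n = 2 each, limma adjusted p = 0.000817). Hsd17b7 had 31.0 and 29.7 RPKM in Ctcf-deleted cells, against 11.5 and 15.8 RPKM in untreated cells, with no overlap but no call (log2 difference 1.11, limma adjusted p = 0.1002). The median over the members was 0.01, and with the clone block Npc2 was higher as well (log2 difference 0.38, limma adjusted p = 0.0419), where 15.7% of all genes were higher. After deletion of Wapl alone no member passed, where 1.5% of genes rose and 0.928% fell. 2 members were at an unadjusted p under 0.05: Npc1, which fell short with a log2 difference of −0.85 (limma adjusted p = 0.170, and 0.0299 with the block, where 6.97% of all genes were lower), and Hsd17b7 (1.06, limma adjusted p = 0.195).

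Adeno-Cre in wild-type cells moved no member past the threshold, where 2.7% of genes rose and 0.54% fell, and 4 members were at an unadjusted p under 0.05. With the clone block Npc2 (log2 difference 0.59, limma adjusted p = 0.00763) and Ggps1 (0.47, 0.0214) were higher, and Scap (−0.43, 0.00349) and Lbr (−0.54, 0.0141) were lower, where 15.8% of all genes were higher and 7.24% lower. Scap had 33.8 and 36.5 RPKM in wild-type cells given Adeno-Cre, against 47.7 and 47.8 RPKM in untreated wild-type cells, with no overlap. The fall of Scap after deletion of Ctcf and Wapl was larger than its change in virus-treated wild-type cells (difference of the log2 differences −0.95, limma adjusted p = 0.0335), and so was that of Insig1 (−2.35, limma adjusted p = 0.0334). These were the 2 members past the threshold in this difference, where 1.72% of all genes were lower and 2.15% higher, and 9 members were at an unadjusted p under 0.05. Without either treated wild-type library, either untreated wild-type library or the untreated Ctcf and Wapl library of clone 3, this count was 0 or 1, and without the untreated library of clone 4 it was 5. Against deletion of Ctcf alone no member passed (0.603% of genes were lower, 0.778% higher), the lowest p was that of Insig1 (log2 difference −2.36, limma adjusted p = 0.0594), and 9 members were at an unadjusted p under 0.05.

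After hydroxytamoxifen in Rosa26(CreER/+) cells no member passed in limma, where 0% of genes were higher and 0% lower, and no member was at an unadjusted p under 0.05. The members' median there was 0.08. The difference between Smc3 deletion and this treatment passed for no member (0.468% of genes were higher and 0.762% lower). It was 1.01 for Tm7sf2, the member with the lowest p (limma adjusted p = 0.435), no member was at an unadjusted p under 0.05, and the members' median was 0.43 against 0.07 over all genes. The rise in Smc3 cells was thus tested against untreated cells of the same clones, and was not shown to differ from the effect of the inducer.

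Nascent RNA was measured in other clones of the Ctcf and Wapl cells, pooled by the authors over clones 1 and 2 for each condition, so the values below have no replicate error. The deposited unit is a length-corrected share of transcripts (TPM), here shares of a fixed total of 200000 per pooled column, and differences are of log2(TPM + 0.1). All 28 members were lower in the deleted pool, where 12611 of 16122 genes were lower. Of the members, 17 were lower by at least 1, where 35.3% of the genes were lower and 6.19% higher by that much. The median was −1.14 over the members and −0.74 over all genes, and 21 of 28 members lay below the median of all genes. Once columns were scaled by their median ratio (0.620), 7 members were lower by at least 1 and the members' median was −0.47. The share and median of all genes above are those of unscaled columns. Those of scaled columns are not given here, so the 7 cannot be set against them. Of the 8 members that had fallen in messenger RNA, 6 were the lowest members in nascent RNA. Fdft1 had 2.40 TPM in the deleted pool against 12.8 TPM in the untreated pool, Fdps 2.46 against 12.9 TPM and Sqle 4.61 against 19.7 TPM. Srebf2 had 1.89 TPM against 8.39 TPM, Scap 1.59 TPM against 7.02 TPM and Insig1 8.75 TPM against 32.7 TPM. These 6 differed by −1.89 to −2.37. Dhcr7, with 3.047 TPM in the deleted pool against 6.66 TPM, differed by −1.10.

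By step, the nascent RNA medians were −2.07 for squalene enzymes, −1.89 for regulators, −1.28 for Acat2, −1.15 for transport genes, −1.10 for sterol enzymes and −0.66 for isoprenoid enzymes. All 9 sterol enzymes lay below the median of all genes, and 6 were lower by at least 1, among them Ebp, the sterol isomerase (1.57 against 5.56 TPM), and Sc4mol (9.50 against 30.0 TPM). Mvd, which fell by 2.16 in messenger RNA, had 3.27 TPM in the deleted pool against 4.82 TPM in the untreated pool, a difference of −0.55 and above the median of all genes. The smallest differences were those of Pmvk (3.55 against 3.87 TPM) and Srebf1 (10.3 against 12.7 TPM), which had not passed in messenger RNA either. Idi1, too low for the messenger RNA test, had 5.56 TPM in the deleted pool against 10.0 TPM.

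**Figure D5:**
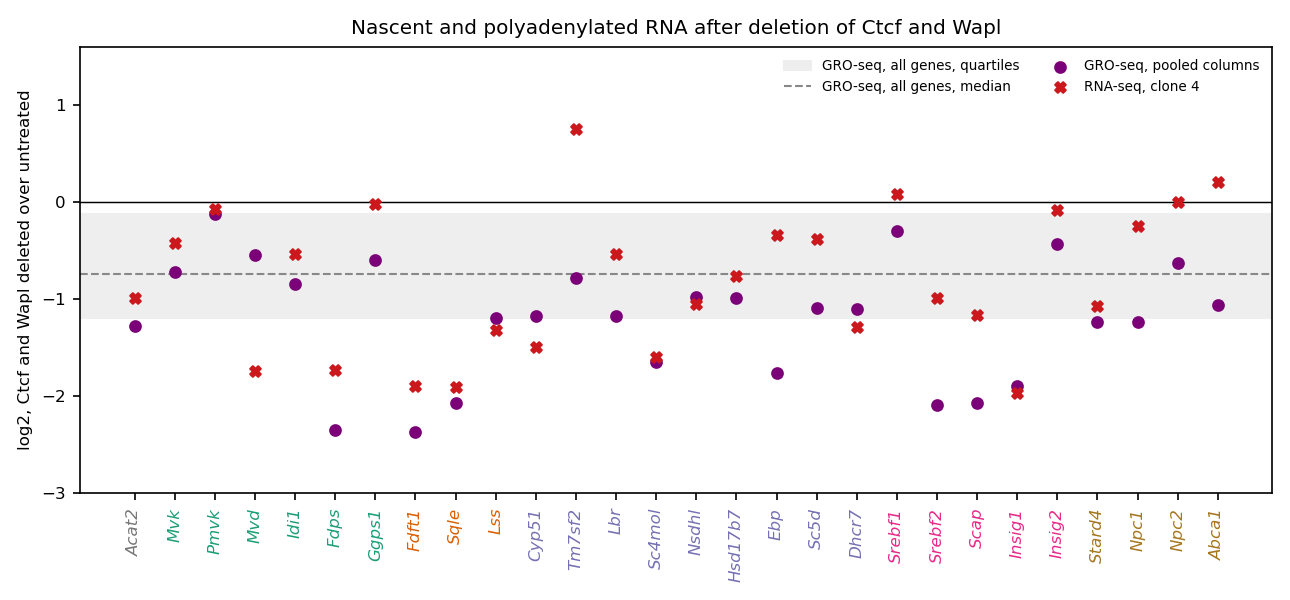
Log2 of the deleted over the untreated value after deletion of Ctcf and Wapl for the 28 members, in nascent RNA (circles, pooled columns) and in messenger RNA (crosses, the pair of clone 4), without error bars. The grey band spans the quartiles of nascent RNA over all genes, −1.19 to −0.12, and the dashed line their median of −0.74. All circles lie below 0, down to −2.37 for Fdft1, where 12611 of 16122 genes lay below 0.

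Nascent RNA of deleted Ctcf and Wapl cells was also measured after 3.5 hours of DRB, an inhibitor of transcription elongation, and 1 day after its removal, each in 1 library, so the values are descriptions of those libraries. With DRB, relative to the deleted pool, the members' median log2 difference was 0.21, against −0.76 over all genes, with 3 members lower and 5 higher by at least 1, where 43.9% of genes were lower and 13.2% higher. Because a column has a fixed sum, a higher value with DRB is a larger share of what was left and not more transcription. The isoprenoid enzymes had the highest median, 1.36: Ggps1 had 39.5 TPM with DRB against 10.4 TPM in the deleted pool, Fdps 13.9 against 2.46 TPM, Idi1 15.5 against 5.56 TPM and Mvd 7.92 against 3.27 TPM. Npc1 had 0.772 TPM with DRB against 3.66 TPM, the lowest difference of the members (−2.11). After removal of DRB the members' median was 0.09 against 0.03 over all genes, with 0 members lower and 2 higher by at least 1, where 13.1% of genes were lower and 6.72% higher. These 2 were Ebp, with 4.32 TPM against 1.57 TPM, and Ggps1, with 23.1 TPM against 10.4 TPM.

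Promoters of the members were read because several members moved together. RefSeq sequence of GRCm38.p6, spanning 250 bases before to 50 bases after each start, was present for 23 of the 28 members (31 promoters). Fdps, Fdft1, Sqle, Stard4 and Npc1 had no entry. The classical sterol regulatory element, searched as TCACNCCAC on both strands, was in 0 of 31 member promoters and in 1.24% of all 32851 promoters, and these letters are only 1 form of the element. The CCAAT box bound by NF-Y, a known partner of SREBPs, was searched as CCAAT on both strands, and the motifs share no position in any match because the first had none. It was in 21 of 31 member promoters (67.7%) and 20 of 23 genes, and in 37.4% of all promoters. Promoters of Acat2, Scap and Abca1 had no match. The 150 bases before the start are shown for the 6 members past the threshold in the difference between deletions that had a CCAAT match there, read 5′ to 3′ on the gene's strand, with CCAAT or its complement ATTGG in capitals.
Mvk (chr5:114444119-114444268, plus strand): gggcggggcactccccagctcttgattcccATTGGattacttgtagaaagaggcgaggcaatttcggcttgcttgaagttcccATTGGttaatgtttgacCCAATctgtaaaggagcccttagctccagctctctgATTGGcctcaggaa
Mvd (chr8:122443423-122443572, minus strand): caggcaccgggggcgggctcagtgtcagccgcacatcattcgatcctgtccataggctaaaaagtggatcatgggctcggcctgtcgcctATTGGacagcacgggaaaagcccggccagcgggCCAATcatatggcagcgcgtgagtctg
Lss (chr10:76531455-76531604, plus strand): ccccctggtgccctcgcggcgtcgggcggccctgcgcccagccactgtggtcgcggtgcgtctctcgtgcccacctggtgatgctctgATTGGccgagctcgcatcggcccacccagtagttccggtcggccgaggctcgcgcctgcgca
Hsd17b7 (chr1:169969206-169969355, minus strand): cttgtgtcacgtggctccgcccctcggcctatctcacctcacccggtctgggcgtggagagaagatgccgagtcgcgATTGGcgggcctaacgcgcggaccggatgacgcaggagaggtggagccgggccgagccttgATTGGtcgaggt
Dhcr7 (chr7:143830064-143830213, plus strand): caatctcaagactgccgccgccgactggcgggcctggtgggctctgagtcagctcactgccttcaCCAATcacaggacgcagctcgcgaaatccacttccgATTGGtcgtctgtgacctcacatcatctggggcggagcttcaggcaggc
Srebf2 (chr15:82147119-82147268, plus strand): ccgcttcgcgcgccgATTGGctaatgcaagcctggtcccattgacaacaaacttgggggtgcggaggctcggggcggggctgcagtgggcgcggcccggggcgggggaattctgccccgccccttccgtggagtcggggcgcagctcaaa
Within those 150 bases the matches lay 14 to 120 bases before the start in Mvk, which had 4 there. In Srebf2, which had 1, the match lay 135 bases before the start. Among members past that threshold, matches farther out lay 173 bases before the start in Mvk, 165 in Hsd17b7 and 216 in Insig1. The difference between the deletions was 1.38 for Mvk, 2.57 for Mvd, 1.90 for Lss and 1.29 for Scap, which had no match. Any link between the matches and these differences was not tested.

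Other genes of sterol and lipid metabolism were read from 5 lists. The 16 genes of fatty acid synthesis under SREBP control held 6 that rose after deletion of Smc3 and none that fell, with a median log2 difference of 0.46, where 9.37% of all genes rose and their median was 0.07. The 3 with the lowest p were Mid1ip1, an activator of acetyl-CoA carboxylase (log2 difference 1.18, limma adjusted p = 0.000259), Fads1, a fatty acid desaturase (1.15, 0.000276), and Me1, malic enzyme (0.49, 0.00587). The 6 also held Acss2 (0.80, limma adjusted p = 0.00836). It rose after deletion of Ctcf alone as well (1.09, limma adjusted p = 0.0176), where 5.04% of all genes rose. After deletion of Wapl alone it differed by 0.77 and did not pass (limma adjusted p = 0.167). With the clone block 11 of the 16 were higher after deletion of Smc3, where 24% of all genes were. After deletion of Ctcf and Wapl 1 rose, Acss2, the acetyl-CoA synthetase (1.21, limma adjusted p = 0.0195), and 2 fell, the desaturases Fads2 (−1.60, 0.00342) and Fads1 (−1.35, 0.00591), and the median was −0.31, where 10.5% of all genes rose and 5.34% fell. In the difference between the deletions Fads1 (2.50, limma adjusted p = 0.000175), Fads2 (2.03, 0.00260) and Me1 (0.95, 0.0118) were higher, where 3.78% of all genes were.

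Of 6 genes of SREBP cleavage and sterol-regulated degradation, 3 rose after deletion of Smc3, where 9.37% of all genes rose. These were Erlin2 (log2 difference 0.47, limma adjusted p = 0.00745) and Rnf139 (0.41, 0.0112), which act in degradation at the endoplasmic reticulum, and Mbtps1, the first SREBP protease (0.26, 0.0447). None of the 6 passed after deletion of Ctcf and Wapl in limma, with 2 lower at an unadjusted p under 0.05.

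Of 6 genes of sterol efflux and its receptors none passed in limma after deletion of Smc3, where 9.37% of all genes rose and 5.6% fell. At an unadjusted p under 0.05, 1 was lower. It was Nr1h3, a sterol-sensing nuclear receptor (−0.85, limma adjusted p = 0.0540, and 0.0129 with the block, where 12.6% of all genes were lower). Lpcat3 was lower after deletion of Ctcf and Wapl (−0.70, limma adjusted p = 0.0367, and 0.0741 with the block). Of the genes of sterol storage and oxidation, the oxysterol enzymes Ch25h (−2.61, limma adjusted p = 0.00111) and Cyp7b1 (−1.12, 0.000409) fell with Smc3 deletion, and Cyp7b1 also fell with Ctcf and Wapl deletion (−1.02, 0.0352, and 0.123 with the block). Of 8 tested genes that use isoprenoids none passed in limma after deletion of Smc3, with 0 at an unadjusted p under 0.05 and a median of 0.12. With the block Fnta, a prenyltransferase subunit, was higher (0.23, limma adjusted p = 0.0328), where 24% of all genes were higher. Rabggta, a subunit of the enzyme that prenylates Rab proteins, fell with deletion of Ctcf and Wapl (−1.79, limma adjusted p = 3.01e-06) and of Ctcf alone (−1.36, 1.05e-05).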

How the data were processed

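Polyadenylated RNA and nascent RNA (GRO-seq) were analysed; chromatin data of the series were not used here. RPKM values per gene were deposited by the authors, as the file headers state, and TPM values of the GRO-seq tables were deposited by the authors per the file headers, in columns whose totals were 200000 for pooled and 100000 for single libraries, and values of single libraries were multiplied by 2. Bowtie 0.12.5, TopHat 1.3.1 and 1.4.1, MACS 1.4.2, bedtools and HTSeq are named, with no role, in the submitters' processing notes, which give mm9 as the build. In 18150 of 18155 genes the RPKM values of all libraries were whole read steps within 0.02 reads, which gave the depths.

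Genes at 1 RPKM or more in at least 2 libraries (12604) entered limma 3.58.1 (R 4.3.3) on log2(RPKM + 1), with 12 groups in 1 fit, 15 residual degrees of freedom and Benjamini-Hochberg adjustment over all tested genes; the script was tested on simulated data. P-values measure the spread between clones, and no source states that clones came from separate embryos. Treated and untreated libraries share a clone per the labels, so clone pairs them; their deviations from group means correlated at 0.47 to 0.76, except −0.20 in the Cre-ER cells. The alternative with clone as a block left 7 residual degrees of freedom.

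GRO-seq columns were compared as log2(TPM + 0.1) for genes at 1 TPM or more in 1 of 2 columns, with no test. Values were named for the 12 members with the lowest adjusted p in the difference between the deletions, for members past the threshold in one deletion, and for up to 3 genes of each other list. The alternatives were a pseudocount of 0.1, no filter, median-of-ratios scaling, only the libraries compared, Smc3 clones 2 to 4, and leaving out each library. The members, lists and named genes were chosen with earlier results of these data known. Coordinates of promoters are those of GRCm38.p6, not of the files.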

Additional observations from a re-analysis of the deposited data

Results flagged for a closer look

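56 groups of 4 libraries were checked for a library that stands apart, and chance marks about 1 in 20 such groups. Acat2 had 10.5 RPKM in the Smc3-deleted library of clone 1, against 3.93 to 4.96 RPKM in the other 3 Smc3-deleted libraries. Ggps1 had 2.03 RPKM in the Smc3-deleted library of clone 2, against 2.47 to 2.53 RPKM in the other 3.

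Scap and Insig1 differed between deletion of Ctcf and Wapl and the same virus in wild-type cells, by −0.95 and −2.35 on the log2 scale (limma adjusted p = 0.0335 and 0.0334, n = 1 and 2 against 2 and 2). The next 6 differences were marked because every clone of one genotype moved one way and every clone of the other the opposite way, and they were not tested. Chance alone also marks genes by this rule, since Ctcf, Wapl and wild-type cells had 2 pairs each. The share of all genes so marked is not given here, so the 6 cannot be set against it. Ggps1 was higher in all Smc3 pairs (log2 0.08 to 0.27) and lower in both Wapl pairs (−0.20 to −0.07), with means 0.32 apart. Between Ctcf deletion and Adeno-Cre in wild-type cells, Hsd17b7 differed most, with pairs at 0.87 to 1.36 in Ctcf-deleted cells and −0.32 to −0.29 in wild-type cells, and means 1.42 apart. Npc1 (means 0.53 apart) and Srebf1 (0.35 apart) also lay above 0 in both Ctcf pairs and below 0 in both wild-type pairs. Fdft1 (means −0.40 apart) and Cyp51 (−0.35 apart) lay below 0 in both Ctcf pairs and above 0 in both wild-type pairs.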

How the results depend on the processing

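With clone as a replicate block, which the shared clones make the paired analysis, 12 members were higher and 1 lower after Smc3 deletion (5 and 0 without it). With it 1 member was higher after Ctcf deletion and 1 lower after Wapl deletion, and after Adeno-Cre in wild-type cells 2 were higher and 2 lower; the block changed no other member count by more than 1.5 times. With only the libraries compared in the fit, 1 member was higher after Smc3 deletion, 0 lower after Ctcf and Wapl deletion, 0 lower after Ctcf deletion, 3 higher in the difference between the deletions and 0 lower against Adeno-Cre in wild-type cells. Without the filter on low values 3 members were higher after Smc3 deletion and 1 was lower in Ctcf and Wapl deletion against Ctcf deletion. Median-of-ratios scaling gave 1 there and 1 against Adeno-Cre in wild-type cells, and put the share of higher genes among all calls at 52.5% after Smc3 deletion (62.6% without it) and at 59.3% in the difference between deletions (42.6%). In Smc3 clones 2 to 4 only, 1 member was higher. Chosen after seeing the data, clones 2 to 4 with the block gave 3 higher and 1 lower, and clones 2 and 4, which had the lowest macrophage sums, gave 1 higher. Leaving out 1 library at a time gave 1 to 13 members higher and 0 to 1 lower after Smc3 deletion, 2 to 8 lower after Ctcf and Wapl deletion, 4 to 17 higher in the difference between them, 0 to 5 lower against Adeno-Cre in wild-type cells and 0 to 2 lower against Ctcf deletion. Scaling the nascent columns by their median ratio gave 7 members lower by at least 1 in place of 17, with no share of all genes given at that scaling. Of 383 values of single genes under these alternatives, 95 lost the threshold and 0 changed sign; the cause was not tested. The deleted Ctcf and Wapl group is 1 library and the nascent columns are pooled. In depth, the lowest members had 2 to 72 reads (Idi1) and 39 or more (Fdps).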

Other observations

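A separately normalized table held 2 libraries that carry the same label, clone 3 of the Ctcf and Wapl cells after Adeno-Cre, and they differed in these genes. The name of the table speaks of serum stimulation, which neither label mentions, so whether both were treated alike is not known here. Fdps had 58.7 RPKM in one and 22.5 RPKM in the other, Hsd17b7 37.2 and 8.02 RPKM, and Cyp51 32.4 and 8.58 RPKM. In the opposite direction, Abca1 had 2.27 and 11.5 RPKM and Tm7sf2 11.7 and 32.0 RPKM. Among 27 members, 8 were at least 1 higher and 3 at least 1 lower on the log2 scale in the first. Among 11226 entries, 1009 were at least 1 higher and 1890 at least 1 lower. The median was 0.30 over the members and −0.22 over the entries. Neither library was used in a comparison above.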
